A study of Mus musculus with 21 samples.

Results

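The 32 genes described here are widely used markers of endothelial cells, the cells that line blood vessels, measured by RNA sequencing in mouse heart tissue. They were taken by symbol from the 19096 genes of the deposited gene matrix, all 32 were found there, and all 32 are protein-coding genes that passed the filter on low counts. The rule uses their names and no measured value, but the members were chosen with earlier results of these data known. The study crossed diet with renin, and its title presents obesity combined with renin-driven hypertension as a mouse form of heart failure in which ejection fraction is preserved. All animals were male C57BL/6NJ mice, aged 8 to 10 weeks at the start, kept on their diet for 10 weeks and sampled 6 weeks after an injection behind the eye. The 4 groups were chow with the control vector (chow control, n = 4), chow with an adeno-associated virus carrying renin (chow renin, n = 6), a diet deriving 60% of energy from fat, plus the control vector (high-fat control, n = 6) and that diet with the renin virus (high-fat renin, n = 5). The sample titles call the control arm novirus and the series text calls it a null vector. The promoter and serotype of the renin virus are not given in the sources used here.

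Endothelial cells sense vascular endothelial growth factor through Kdr and Flt1 and angiopoietins through the receptor Tek with its relative Tie1, and they hold together through junction proteins such as Cdh5, Pecam1, Cldn5 and Esam. Notch1 with its ligand Dll4 sets arterial identity and restrains sprouting, and the factors Klf2 and Klf4 rise in vessels under laminar flow. In the heart most endothelial cells belong to the dense capillary bed between cardiomyocytes. The libraries came from heart tissue, so for every difference below fewer endothelial cells and less RNA per endothelial cell cannot be told apart.

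Library totals ranged from 18.7 to 29.3 M (mega) estimated reads, and all chow control totals (18.7 to 21.4 M) lay below those of the other groups, so depth and group were confounded in comparisons with chow control. Marker sums are given in CPM, read counts scaled to a common library total with TMM factors. The label of heart was matched by a sum over 10 cardiomyocyte markers of 58940 to 85710 CPM. Transcripts of central neurons and glia stood out in chow renin. Beside 13.5% of all genes called there in either direction against chow control, 11 of 12 such markers were called higher. Their sums were 88.9 to 95.7 CPM in chow control, 278.8 to 464 in chow renin, 103.8 to 149.1 in high-fat control and 78.7 to 143.3 in high-fat renin. Of 10 markers of brain endothelium, 6 were called higher in chow renin than in chow control (Slco1c1, Mfsd2a, Slc2a1, Slc22a8, Foxf2 and Spock2), beside the same 13.5%. The sums of these 10 were 44.2 to 55.9 CPM in chow control and 66.3 to 105.2 in chow renin. High-fat control replicate 6 stood apart in the endothelial genes themselves: its 32 levels summed to 2621 CPM, against 1896 to 2114 CPM in the other 5 libraries of its group. In that library 30 of 32 members lay above their own median over all libraries.

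Levels between genes are compared as TPM, the transcript abundance scale that corrects for transcript length. Ly6c1, a surface protein of capillary endothelium and of some leukocytes, was highest at 161.8 ± 30.9 TPM (SD over the 21 libraries) and made up 22.2% of the summed TPM of the 32 genes. Reads of Ly6c1 are uncertain because Ly6c2 is a near-identical copy. Egfl7, a secreted vessel protein, followed at 75.9 ± 11.6 TPM. Its level is uncertain too, because Agpat2 overlaps it on the opposite strand with 69.8% as many reads, and the strand setting of the counting is not given in the sources used here. Eng (46.2 ± 7.18), Cdh5 (44.2 ± 4.74) and Pecam1 (41.4 ± 5.20) came next, and these neighbours differed by less than their spread. The growth factor receptors measured 27.0 ± 5.74 TPM for Kdr, 24.6 ± 2.58 for Tie1, 17.6 ± 2.23 for Flt1 and 9.28 ± 1.32 for Tek. Plvap, a protein of fenestrated vessels, was lowest at 4.17 ± 1.85 TPM, and the gene Gtpbp3 on the opposite strand held 153% as many reads. The least covered member value in any library was 118 estimated reads (Plvap), and intervals from such counts would cover counting error only.

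**Figure D1:**
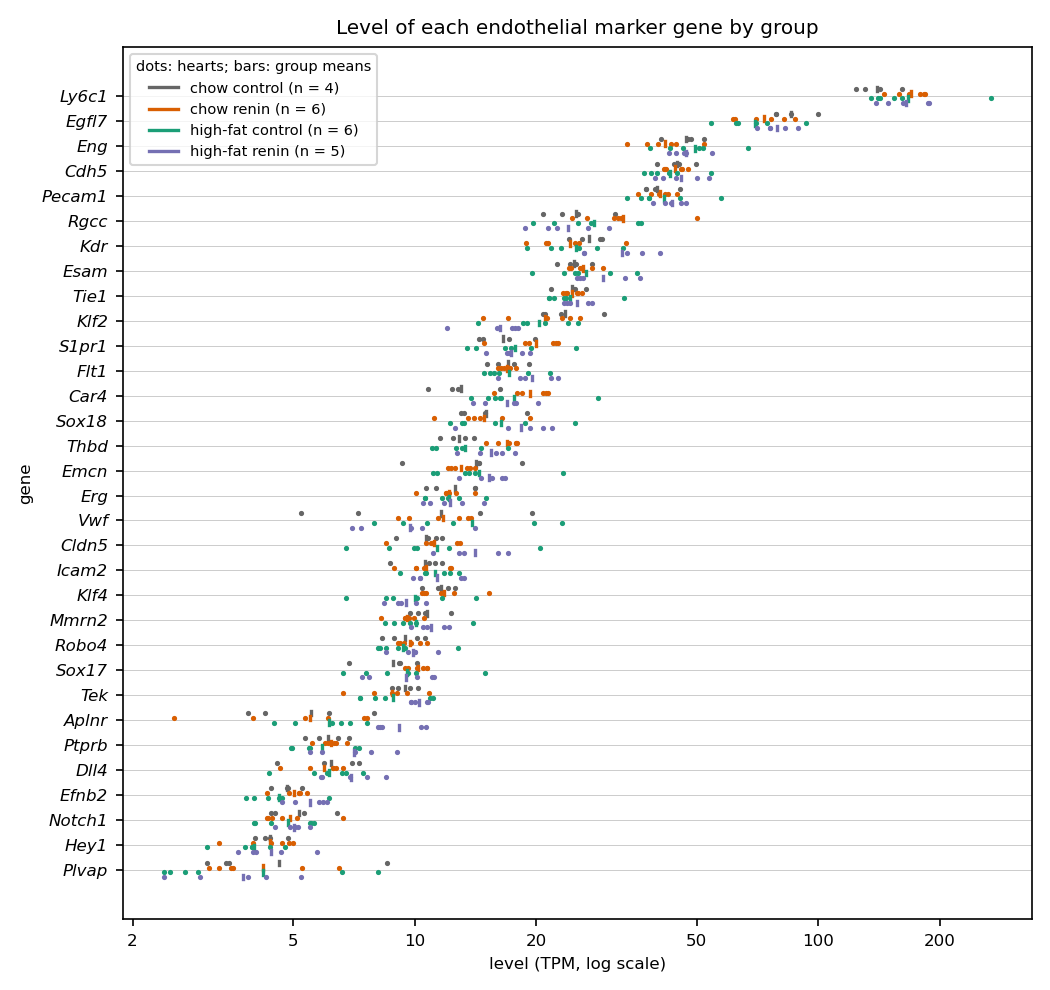
Level of each of the 32 genes in TPM (log axis), genes ordered by mean; dots are hearts and bars are group means (n = 4, 6, 6 and 5). Ly6c1 lies highest (mean 161.8 TPM) and Plvap lowest (mean 4.17 TPM), and the colours of the 4 groups overlap for most genes.

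Cdh5, the cadherin of endothelial junctions, gives an example of a steady member. It measured 39.9, 45.2, 43.8 and 49.7 TPM in chow control, and 41.4, 43.9 and 47.4 TPM as the lowest, median and highest of chow renin. High-fat control gave 36.9, 41.2 and 54.4 TPM in the same order, and high-fat renin 53.6, 44.5, 39.5, 41.2 and 50 TPM. All 4 groups overlapped, and its log2 fold changes from counts lay between -0.12 and 0.17 in the 5 comparisons of pairs of groups, none of them called in the edgeR model of all libraries.

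The upstream sequences of 5 members are shown because the first 4 were among the members called higher in the comparison of renin groups below, while Klf2 is itself a factor that binds the marked word. They are the 250 bases before the RefSeq start site on build GRCm38.p6, read 5′ to 3′ on the strand of the gene. Capitals mark the KLF-type word CCACCC or its reverse complement GGGTGG. The positions are chr5:75978456-75978705 for Kdr (minus strand), chr5:147726012-147726261 for Flt1 (minus), chr2:32646345-32646594 for Eng (plus), chr4:94739039-94739288 for Tek (plus) and chr8:72318812-72319061 for Klf2 (plus).
Kdr: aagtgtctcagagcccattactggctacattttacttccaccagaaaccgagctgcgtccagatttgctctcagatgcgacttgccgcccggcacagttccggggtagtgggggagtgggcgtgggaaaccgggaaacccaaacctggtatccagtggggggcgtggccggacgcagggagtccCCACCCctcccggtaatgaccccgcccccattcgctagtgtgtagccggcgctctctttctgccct
Flt1: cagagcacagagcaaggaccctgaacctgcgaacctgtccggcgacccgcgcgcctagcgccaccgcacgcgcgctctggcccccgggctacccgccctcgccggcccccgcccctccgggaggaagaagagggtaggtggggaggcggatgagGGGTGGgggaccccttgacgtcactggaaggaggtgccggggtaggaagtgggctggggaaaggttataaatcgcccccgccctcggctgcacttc
Eng: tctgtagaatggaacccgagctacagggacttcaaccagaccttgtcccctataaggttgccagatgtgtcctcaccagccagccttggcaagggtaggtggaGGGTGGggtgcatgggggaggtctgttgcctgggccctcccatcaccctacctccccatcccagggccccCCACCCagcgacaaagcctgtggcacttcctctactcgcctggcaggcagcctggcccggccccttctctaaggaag
Tek: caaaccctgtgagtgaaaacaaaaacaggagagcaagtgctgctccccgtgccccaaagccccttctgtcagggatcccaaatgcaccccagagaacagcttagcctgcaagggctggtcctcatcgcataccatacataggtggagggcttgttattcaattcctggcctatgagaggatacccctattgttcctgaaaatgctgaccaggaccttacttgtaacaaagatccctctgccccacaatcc
Klf2: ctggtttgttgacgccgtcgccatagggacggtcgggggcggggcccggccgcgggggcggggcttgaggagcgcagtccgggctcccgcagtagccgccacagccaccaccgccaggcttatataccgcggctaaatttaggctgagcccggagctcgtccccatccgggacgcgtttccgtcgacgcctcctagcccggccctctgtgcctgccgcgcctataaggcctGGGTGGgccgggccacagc
The word occurred once in Kdr, Flt1 and Klf2, at 2 places in Eng and not in Tek. It was also absent from the promoter of Emcn, another member called higher, which is not shown. RefSeq promoters were matched for 18 of the 32 members. On either strand CCACCC was in 8 of these 18 (44.4%) and in 28.1% of 32851 promoters of the same length. The ETS words CCGGAAG or CAGGAAG were in 27.8% of the 18 and 17.0% of all, the RBPJ word TGGGAA in 27.8% and 21.6%, the SOX word ACAATG in 5.56% and 10.7%, and the E-box CACGTG in 5.56% and 6.02%. A word in this window is not a bound site, and the words were searched with the results known.

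High-fat renin against chow control addresses the combined model, and none of the 32 members passed the test there. By edgeR's quasi-likelihood test with Benjamini-Hochberg adjustment, 0 of 32 members were called at an adjusted p under 0.05, against 8.31% of all 15216 genes tested. At an unadjusted p under 0.05 there were 6 members, Aplnr, Thbd, Car4 and Esam above 0 and Klf2 and Klf4 below it. Of all 32 members, 25 had a log2 fold change above 0, with a median of 0.10 beside 0.01 over all genes tested, and 24 had a 95% interval within 1.5-fold in either direction. Of 10 cardiomyocyte markers 6 were called lower and 2 lay above 0 (median -0.32). Of 10 fibroblast markers 9 lay above 0 (median 0.245) and Postn was called higher. The part of these markers in the members' values was not tested. DESeq2 called 2 of 32, Klf2 (adjusted p 0.0199) and Thbd (adjusted p 0.0278), in a fit that called 1608 of 15890 genes.

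Klf2, the flow-responsive transcription factor, had the lowest log2 fold change in that comparison. It measured 46.6, 41.4, 39.4 and 59.6 CPM in chow control and 21.9, 36.7, 35.5, 35.8 and 31.2 CPM in high-fat renin, and these 2 groups did not overlap. Chow renin gave 27.5, 40.8 and 45.2 CPM as the lowest, median and highest, and high-fat control 33.1, 45.3 and 50.7 CPM. Its log2 fold change between the 2 non-overlapping groups was -0.54 (SE 0.17, adjusted p by edgeR 0.058), and with 1 library left out the adjusted p ran from 0.0461 (without chow control replicate 3) to 0.222 (without chow control replicate 4, log2 fold change -0.40). Aplnr, the apelin receptor of capillaries and veins, was the other member whose groups did not overlap. It measured 17.4, 18.6, 33.3 and 27.5 CPM in chow control and 43.4, 37.7, 34.7, 37.0 and 44.7 CPM in high-fat renin, a log2 fold change of 0.71 (SE 0.27, adjusted p by edgeR 0.121). Groups did not overlap in CPM for 10% of all genes tested in this comparison, and in TPM Klf2 and Aplnr were without overlap too. The clock genes Dbp, Per1, Tef and Ciart were called lower in high-fat renin, and with a clock score as a term in the model Klf2 gave -0.11, in a fit that called 0 of all genes where 1265 were called without the score. In that fit 19 of 32 members lay above 0, with a median of 0.03. Of the clock score's variance 58.3% lay between groups, and the part of the clock genes in the Klf2 value was not tested. The authors' deposited table, whose reference group is not stated, lists log2 fold changes of -0.32 for Klf2 (adjusted p 0.0297), 0.19 for Thbd (adjusted p 0.0446) and 0.32 for Aplnr (adjusted p 0.0549), and these were the 3 smallest adjusted p-values of the 32 members in it.

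**Figure D2:**
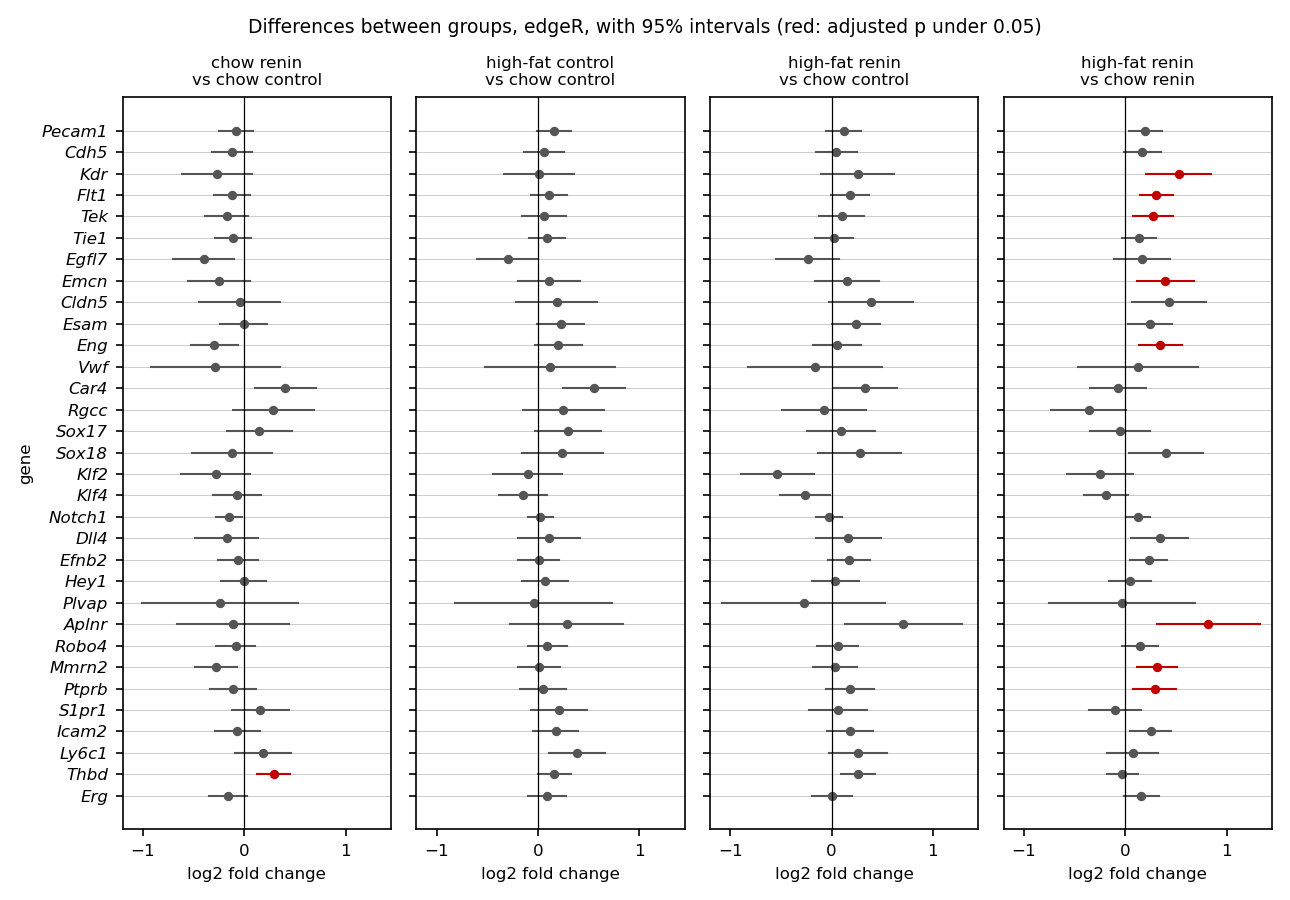
Log2 fold change of each member (points) with its 95% interval (lines) in 4 comparisons, on a shared axis; red marks an adjusted p under 0.05 over all genes tested. The last panel holds 8 red members, all to the right of 0, the first panel holds Thbd alone, and the middle panels hold none.

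Renin on chow against chow control gave 1 called member, Thbd, while the number of markers above 0 depended on the scale. The count of 1 in 32 stands beside 13.5% of all genes called. On the CPM scale log2 fold changes lay below 0 for 26 of 32 members with a median of -0.11, beside -0.03 over all genes. With a central neuron and glia score as a term, 23 of 32 lay above 0 with a median of 0.15. That fit called 35 of all genes where 2048 were called without the score, and score and group cannot be told apart. By group means of TPM, 16 of 32 members were above 0, with a median of 0.001 beside 0.09 over all genes, and 10 members changed sign between the scales. In the fit, 24 of 32 had a 95% interval within 1.5-fold. At an unadjusted p under 0.05, Thbd and Car4 were higher and Egfl7, Eng, Notch1 and Mmrn2 lower. DESeq2 called 3 (Thbd, Car4 and Egfl7), in a fit that called 2233 of 17259 genes. The 2 chow groups did not overlap for Thbd (higher) and for Notch1 and Mmrn2 (lower) in CPM, as for 15.1% of all genes, and in TPM only Thbd was without overlap.

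Thbd (ENSMUSG00000074743, chr2:148404466-148408188, minus strand, GRCm38) encodes thrombomodulin, the endothelial surface protein that turns thrombin towards anticoagulation. It measured 56.6, 58.5, 59.3 and 52.4 CPM in chow control, and 64.1, 69.7 and 73.7 CPM as the lowest, median and highest of chow renin. Every chow renin heart thus lay above every chow control heart, and the log2 fold change was 0.29 (SE 0.08, adjusted p by edgeR 0.0144). High-fat control gave 54.0, 62.4 and 76.2 CPM, overlapping both groups. High-fat renin gave 67.3, 58.9, 77.7, 66.7 and 69.2 CPM, a log2 fold change of 0.26 from chow control (SE 0.08, adjusted p by edgeR 0.0501), and with 1 library left out that adjusted p ran from 0.0305 (without high-fat renin replicate 2) to 0.165 (without chow control replicate 4). The chow renin call was lost without chow control replicate 4 (adjusted p 0.0686). It was also lost without 3 libraries whose file codes set them apart, chow control replicates 1 and 2 and high-fat renin replicate 1 (adjusted p 0.0783), where Erg was called lower instead (-0.32, adjusted p 0.0472). Leaving out 1 library gave between 0 and 3 called members: Egfl7 joined Thbd without chow renin replicate 3 or 4 or chow control replicate 1, Car4 joined it without chow control replicate 2, and Eng and Mmrn2 joined it without chow renin replicate 6. Fits with 1 library left out called 1512 to 2268 of all genes. With the central neuron and glia score as a term, Thbd had a log2 fold change of 0.24 and an adjusted p of 0.798. Of that score's variance 89% lay between groups, so score and group cannot be told apart.

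High-fat diet alone against chow control left 0 of 32 members called by edgeR, in a comparison that called 0.0657% of all genes. There were 3 members with an unadjusted p under 0.05, Car4 and Ly6c1 above 0 and Egfl7 below it. DESeq2 called Car4 (adjusted p 0.0416), in a fit that called 111 of 15432 genes. No member's groups failed to overlap, against 2.42% of all genes. Log2 fold changes lay above 0 for 28 members with a median of 0.11, and for 23 members with a median of 0.04 without high-fat control replicate 6. By group means of TPM only 16 members were above 0, with a median of -0.0002 beside -0.11 over all genes. Ly6c1 measured 81.9, 89.9, 70.5 and 71.7 CPM in chow control and 86.5, 92.8 and 156.8 CPM as the lowest, median and highest of high-fat control. The highest value was replicate 6, and the log2 fold change was 0.38 with it (adjusted p by edgeR 0.282) and 0.22 without it (adjusted p by edgeR 0.353). Chow renin (78.2, 90 and 96.8 CPM) and high-fat renin (98.3, 90.7, 93.6, 82.0 and 105.4 CPM) overlapped the other groups for Ly6c1. Beside its endothelial levels, high-fat control replicate 6 had the lowest cardiomyocyte sum of its group (63030 CPM in a range to 77130) and the highest macrophage sum (281.8 CPM in a range from 158.7). The part of these markers in the endothelial levels was not tested.

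**Figure D3:**
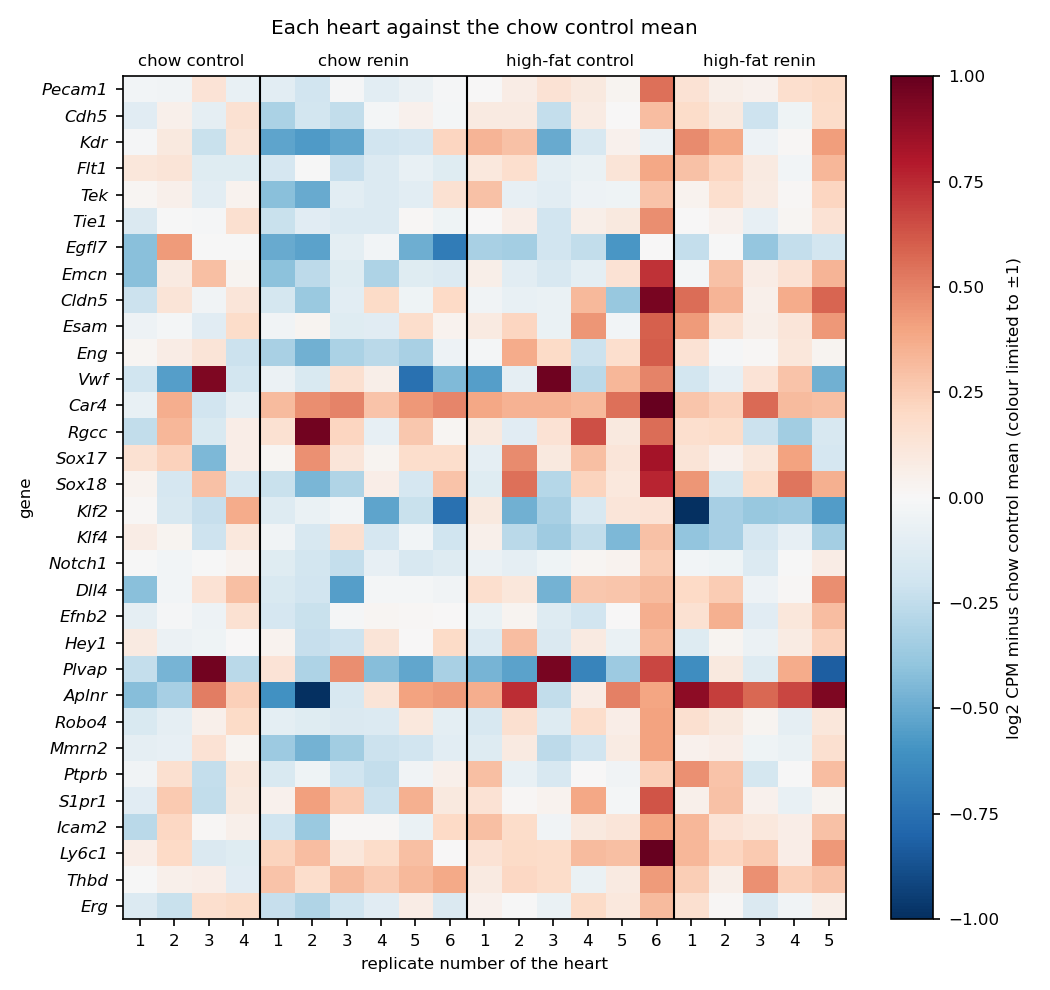
Log2 CPM of each member in each heart minus the chow control mean (colour, limited to 1 in either direction), libraries grouped by condition and numbered by replicate. High-fat control replicate 6 forms a mostly red column, Aplnr is red in 5 of 5 high-fat renin hearts, and Thbd is red in 6 of 6 chow renin hearts.

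Renin on the high-fat diet, set against the high-fat control, also left 0 of 32 members called by edgeR, where 11.1% of all genes were called. Only Klf2 had an unadjusted p under 0.05, at a log2 fold change of -0.43 (SE 0.16, adjusted p by edgeR 0.0777). DESeq2 called Klf2 (adjusted p 0.0343), in a fit that called 2151 of 14975 genes. The signs were split, with 15 members above 0 and 17 below, a median of -0.02 beside -0.01 for all genes, and in CPM no member's groups failed to overlap against 3.48% of all genes, while in TPM Aplnr was without overlap. By group means of TPM 22 members were above 0, with a median of 0.08 beside 0.12 over all genes. The 95% interval lay within 1.5-fold for 27 of 32 members. Without high-fat control replicate 6, 22 members were above 0, the median was 0.05, and Cldn5, the sealing claudin of endothelial tight junctions, was called higher at 0.42 (adjusted p 0.0389). Without high-fat control replicate 2, Klf2 was called lower at -0.50 (adjusted p 0.0491).

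Under renin, high-fat hearts had higher levels of 8 endothelial markers than chow hearts: the receptors Flt1, Kdr, Tek, Eng and Aplnr, the phosphatase Ptprb, and the surface or matrix proteins Emcn and Mmrn2. Their fold changes ran from 1.21 for Tek to 1.76 for Aplnr. By edgeR these were 8 of 32 members (25%), beside 22.6% of all genes called in either direction and 9.8% called higher. DESeq2 called 8 as well, in a fit that called 3669 of 17259 genes. No member was called lower. A further 8 members had an unadjusted p under 0.05 without passing the adjusted test, all above 0: Pecam1, Cldn5, Esam, Icam2, Sox18, Notch1, Dll4 and Efnb2. The median log2 fold change of all 32 was 0.17 beside 0.02 over all genes. By group means of TPM the 8 called members were also all above 0 (0.17 to 0.73 on the log2 scale), 22 of 32 were, and the median was 0.07 beside -0.09 over all genes. In the fit, the 8 members below 0 were Rgcc, Klf2, Klf4, S1pr1, Car4, Sox17, Plvap and Thbd, from -0.36 to -0.03. On the CPM scale groups did not overlap for 5 members, Pecam1, Emcn, Eng, Aplnr and Mmrn2, beside 15.3% of all genes. In TPM only Aplnr was without overlap, and the other 4 overlapped.

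Flt1 and Kdr are the receptors 1 and 2 for vascular endothelial growth factor, Kdr being the main signalling receptor. Flt1 (ENSMUSG00000029648, chr5:147561604-147726011, minus strand; positions here are gene bounds on GRCm38) measured 119.5, 128.2 and 139.7 CPM as the lowest, median and highest of chow renin and 171.8, 162.6, 149.2, 137.4 and 176.6 CPM in high-fat renin. Only replicate 4 of high-fat renin fell inside the chow renin range, and the log2 fold change was 0.31 (SE 0.08, adjusted p by edgeR 0.00702). Chow control (151.4, 153.2, 129.0 and 128.9 CPM) and high-fat control (131.2, 151.9 and 183.0 CPM) lay across both. Flt1 kept its call without each library in turn, with adjusted p from 0.00223 to 0.0364. Kdr (ENSMUSG00000062960, chr5:75932827-75978458, minus strand) gave 132.7, 154.3 and 227.9 CPM in chow renin and 272.6, 254.9, 189.5, 198.1 and 262.5 CPM in high-fat renin, a log2 fold change of 0.53 (SE 0.15, adjusted p by edgeR 0.0171). A single chow renin heart, replicate 6, reached into the high-fat renin range. In chow control Kdr was 194.6, 209.9, 168.4 and 214.9 CPM and in high-fat control 138.2, 195.4 and 248.2 CPM, so both controls overlapped both renin groups. The Kdr call was lost without chow renin replicate 1 (adjusted p 0.0572) or 3 (0.0554) or high-fat renin replicate 1 (0.0736).

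Tek (ENSMUSG00000006386, chr4:94739289-94874976, plus strand) is the angiopoietin receptor and Ptprb (ENSMUSG00000020154, chr10:116275523-116389535, plus strand) the phosphatase that acts on it. Tek measured 35.1, 45.7 and 55.3 CPM as the lowest, median and highest of chow renin and 50.9, 55.9, 52.7, 50 and 57.6 CPM in high-fat renin, a log2 fold change of 0.27 (SE 0.10, adjusted p by edgeR 0.0427). The groups overlapped through chow renin replicate 6 alone. Chow control gave 50.3, 51.7, 46.2 and 51.0 CPM and high-fat control 46.2, 48.2 and 60.9 CPM. Ptprb measured 77.7, 85.5 and 94.6 CPM in chow renin and 125.7, 111.3, 81.2, 91.3 and 113.5 CPM in high-fat renin, a log2 fold change of 0.29 (SE 0.10, adjusted p by edgeR 0.0424). Here 2 of 5 high-fat renin hearts lay within the chow renin range. Chow control gave 89.3, 102.4, 77.5 and 99.0 CPM and high-fat control 81.8, 90.5 and 112.9 CPM. Both calls were near the threshold: with 1 library left out the adjusted p ran from 0.00714 to 0.156 for Tek, which stayed called only without chow renin replicate 6 or high-fat renin replicate 4, and from 0.00749 to 0.212 for Ptprb, which stayed called only without chow renin replicate 6 or high-fat renin replicate 3 or 4.

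Eng (ENSMUSG00000026814, chr2:32646595-32682669, plus strand) is endoglin, a co-receptor for BMP and TGF-beta ligands. It measured 121.0, 135.0 and 162.7 CPM as the lowest, median and highest of chow renin and 186.6, 166.9, 169.5, 182.8 and 171.5 CPM in high-fat renin, without overlap, and the log2 fold change was 0.35 (SE 0.10, adjusted p by edgeR 0.0185). Chow control gave 170.9, 177.1, 184.2 and 144.9 CPM and high-fat control 145.4, 190.8 and 256.5 CPM. On the CPM scale chow renin was thus the low group for Eng, with 5 of 6 hearts below every heart of the other groups. In TPM its chow renin range (33.55 to 51.96) overlapped those of chow control (40.73 to 51.99), high-fat control (38.32 to 67.04) and high-fat renin (42.63 to 54.54). The Eng call was lost without high-fat renin replicate 1 (adjusted p 0.0624). It was also lost by edgeR with an effective length offset (0.0675), without the 3 libraries set apart by file codes (0.0746) or with the central neuron and glia score (0.9985). A limma fit of the authors' matrix did not call it either (0.0756). Aplnr (ENSMUSG00000044338, chr2:85136225-85139923, plus strand) gave the largest difference of the 32 genes in this comparison, at 10.7, 23.1 and 31.4 CPM in chow renin against the high-fat renin values given above. Those groups did not overlap either, and the log2 fold change was 0.82 (SE 0.24, adjusted p by edgeR 0.0199). High-fat control was intermediate at 19.6, 30.4 and 38.9 CPM. The Aplnr call was lost without chow renin replicate 1 (adjusted p 0.0587) or high-fat renin replicate 1 (0.0591).

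Emcn (ENSMUSG00000054690, chr3:137341067-137432185, plus strand) is endomucin, a sialomucin of capillaries and veins. It measured 17.5, 20.3 and 21.4 CPM as the lowest, median and highest of chow renin and 22.9, 28.6, 24.6, 25.7 and 29.4 CPM in high-fat renin, without overlap, a log2 fold change of 0.40 (SE 0.14, adjusted p by edgeR 0.0396). Chow control (17.4, 24.8, 28.8 and 23.7 CPM) overlapped both, and high-fat control gave 20.9, 23.0 and 38.5 CPM. With 1 library left out its adjusted p ran from 0.0449 to 0.106, and it stayed called only without chow renin replicate 6 or high-fat renin replicate 1 or 3. Mmrn2 (ENSMUSG00000041445, chr14:34375465-34404287, plus strand), multimerin 2 of the vessel matrix, measured 36.4, 41.8 and 46.9 CPM in chow renin and 52.1, 53.1, 49.2, 48.4 and 56.7 CPM in high-fat renin, again without overlap. Its log2 fold change was 0.31 (SE 0.09, adjusted p by edgeR 0.0175). Chow control gave 47.5, 47.9, 55.9 and 51.6 CPM, all above the chow renin hearts and overlapping high-fat renin, and high-fat control gave 42.2, 49.8 and 67.0 CPM. The Mmrn2 call was lost without chow renin replicate 1 (adjusted p 0.0557) or 3 (0.0517) or high-fat renin replicate 5 (0.0556).

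**Figure D4:**
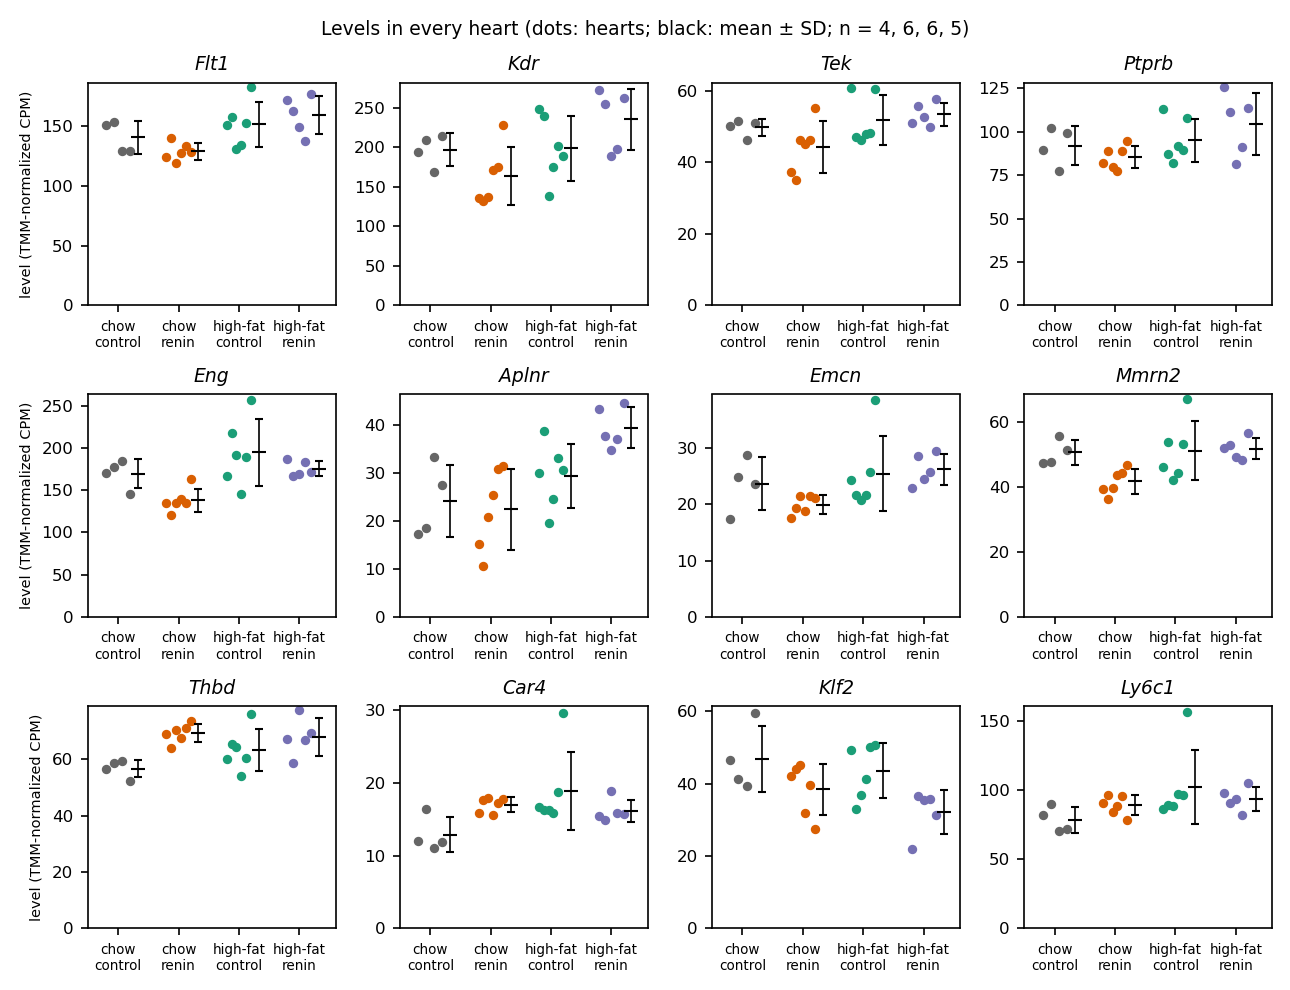
TMM-normalised CPM of 12 members in every heart (dots) with the group mean ± SD (black; n = 4, 6, 6 and 5), axes from 0. Eng, Emcn, Aplnr and Mmrn2 in high-fat renin lie above all chow renin hearts; Ly6c1 and Car4 show high-fat control replicate 6 as a single high dot.

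By role, the called genes were 4 of the 5 VEGF and TIE receptors and their phosphatase (all but Tie1, at 0.13), 2 of 4 other receptors, and 2 of 9 surface and junction genes. Of all genes, 22.6% were called in either direction and 9.8% higher, and the calls of Tek and Ptprb were near the threshold, as stated above. The 2 remaining receptors were not called, S1pr1 (-0.10), which binds sphingosine 1-phosphate, and Robo4 (0.15), a vessel guidance receptor. Among the junction genes, Pecam1 measured 0.20, Cldn5 0.43, Esam 0.25 and Cdh5 0.17 on the log2 scale, and Icam2, an adhesion molecule, 0.25. The 5 arterial and Notch members were not called by the edgeR model of all libraries or by DESeq2: Dll4 was at 0.34, Efnb2 (ephrin B2) at 0.23, Notch1 at 0.13, its target Hey1 at 0.04 and the arterial factor Sox17 at -0.06, and the first 3 had an unadjusted p under 0.05. A fit of only the compared groups called Dll4 (adjusted p by edgeR 0.0354). Of 26 alternatives, 2 called Dll4, 2 called Efnb2 (adjusted p by edgeR down to 0.0191 with 1 library left out) and 1 called Notch1. The transcription factors were split, with Sox18 at 0.40 and Erg, an ETS factor of endothelial identity, at 0.16, against Klf2 at -0.25 and Klf4 at -0.19. Rgcc, a cell cycle regulator abundant in capillary endothelium, had the lowest value (-0.36). In the 6 tests of the edgeR model of all 21 libraries with TMM factors and group as its only term, 22 of the 32 members were not called, and other settings called some of these.

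The count of 8 depended on single libraries: it was 2 without chow renin replicate 1, 3 without chow renin replicate 3 or high-fat renin replicate 1, 4 without high-fat renin replicate 5, and 5 without chow renin replicate 2, 4 or 5 or high-fat renin replicate 2. These fits called 2473 to 2993 of all genes, where 3440 were called with every library. Where 2 members were called, 2620 of 15118 genes tested were. In the comparison of renin groups, where 22.6% of all genes were called in either direction, 11 of 12 central neuron and glia markers and 7 of 10 brain endothelium markers were called lower in high-fat renin. Brain endothelium sums were 66.3 to 105.2 CPM in chow renin and 36.2 to 52.7 CPM in high-fat renin. With the central neuron and glia score as a term, 0 of 32 members were called, 14 lay above 0, and the median was -0.07, in a fit that called 41 of all genes where 3440 were called without the score. Score and group cannot be told apart here, as stated for chow renin. Among the 10 cardiomyocyte markers 4 were called lower (Myh6, Tnnt2, Tnni3 and Myl2) and 2 higher (Actc1 and Ttn), with sums of 65500 to 67690 CPM in chow renin and 58940 to 66430 CPM in high-fat renin. Fibroblast markers lay above 0 for 9 of 10 with a median log2 fold change of 0.31, Col3a1 and Postn were called higher, and their sums were 1163 to 1862 CPM in chow renin and 1759 to 2428 CPM in high-fat renin. Macrophage markers lay above 0 for 8 of 10 with a median of 0.23 and none called, with sums of 162.3 to 241.5 and 191.6 to 216 CPM. Mural cell markers lay above 0 for 7 of 10 with a median of 0.05, Mcam was called higher, and sums were 828.2 to 1036 and 954.9 to 1045 CPM in the same order. The part of these 4 marker lists in the members' values was not tested.

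**Figure D5:**
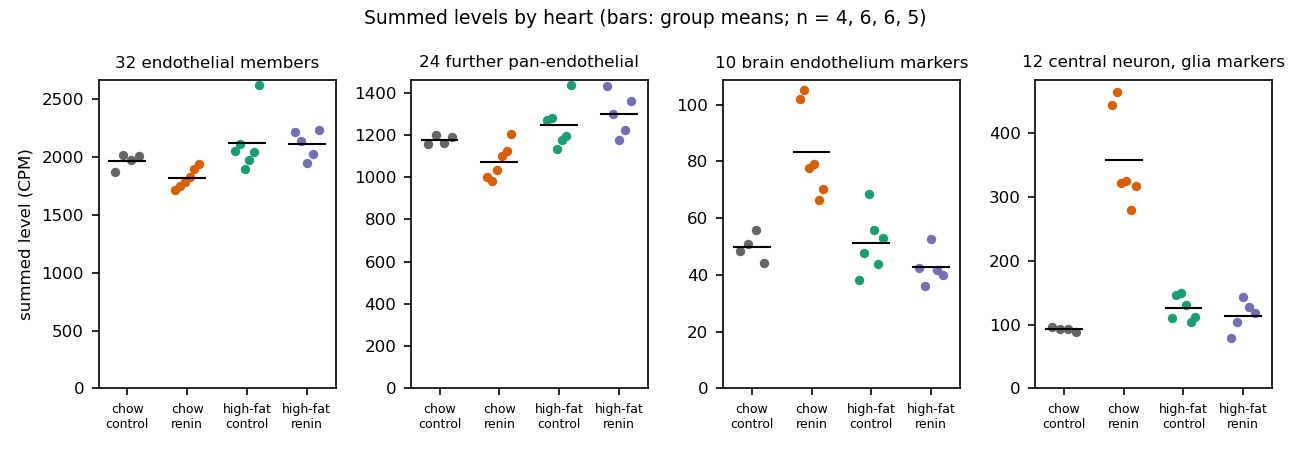
Summed CPM of the 32 members, 24 further pan-endothelial genes, 10 brain endothelium markers and 12 central neuron and glia markers in every heart (dots; bars are group means; axes from 0). On this CPM scale the group means of the 2 endothelial panels are lowest in chow renin (member sums 1712 to 1936 CPM against 1946 to 2232 CPM in high-fat renin), which for the members is not so in TPM (704.1 to 755.3 against 693.3 to 836.1), and those of the 2 brain panels are highest there.

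The test of whether renin acted differently on the 2 diets (its effect under high fat less its effect under chow) called 1 of 32 members, Car4, beside 10.4% of all genes. Car4 (ENSMUSG00000000805, chr11:84957786-84966044, plus strand, GRCm38) is carbonic anhydrase 4, an enzyme held on the capillary surface. It measured 12, 16.4, 11.1 and 11.9 CPM in chow control and 15.5, 17.4 and 18.0 CPM as the lowest, median and highest of chow renin. High-fat control gave 15.9, 16.5 and 29.6 CPM and high-fat renin 15.4, 14.9, 18.8, 15.8 and 15.7 CPM. The chow control hearts were thus low apart from replicate 2, and the other 3 groups overlapped one another. The log2 fold change of renin was 0.40 on chow (adjusted p by edgeR 0.0708) and -0.23 on the high-fat diet (adjusted p by edgeR 0.291), and the difference between them was -0.63 (SE 0.20, adjusted p by edgeR 0.0417). DESeq2 also called Car4 alone of the members, in a fit that called 1777 of 16347 genes. Without high-fat control replicate 6 the difference was -0.46 and Car4 (adjusted p 0.0239) and Mmrn2 (0.39, adjusted p 0.0241) were called. The Car4 call was lost without high-fat renin replicate 1, 2, 4 or 5, chow renin replicate 2, 3 or 6, high-fat control replicate 5, or chow control replicate 1, 3 or 4, where the highest adjusted p was 0.0906.

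Egfl7, which followed Ly6c1 in TPM, was not called in the 6 tests of that model. It measured 40.4, 72.8, 54.0 and 54.1 CPM in chow control and 33.3, 38.4 and 53.2 CPM as the lowest, median and highest of chow renin. High-fat control gave 36.1, 44.5 and 54.2 CPM and high-fat renin 46.0, 54.0, 41.5, 45.8 and 47.8 CPM, so that all groups overlapped. Its log2 fold change was -0.40 in chow renin against chow control (SE 0.14, adjusted p by edgeR 0.0679), and it was called there by DESeq2 (adjusted p 0.0458) and by edgeR with an effective length offset (-0.34, adjusted p 0.0473).

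Vwf, the von Willebrand factor of larger vessels and endocardium, and Plvap had wide ranges within groups. Vwf measured 54.1, 42.2, 118.7 and 54.5 CPM in chow control, and 42.2, 68.1 and 121.8 CPM as the lowest, median and highest of high-fat control. Plvap measured 7.67, 6.55, 17.8 and 7.51 CPM in chow control and 5.71, 6.78 and 17.6 CPM in high-fat control. The highest values of both genes were in replicate 3 of each of these groups. The same 2 libraries had the highest sums over atrial markers in their groups (1228 CPM in a range from 156.3, and 886.2 CPM in a range from 41.9) and the highest sums over 6 endocardial markers (152.5 and 144.2 CPM, against 77.2 to 100.5 CPM in the other libraries of these groups). The part of atrial tissue in the Vwf and Plvap levels was not tested. Neither gene was called in any comparison, and their 95% intervals on the log2 scale reached from -0.92 to 0.35 (Vwf) and from -1.01 to 0.53 (Plvap) in chow renin against chow control.

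Flt1 makes a full receptor and a short secreted form, soluble Flt1, which binds the growth factor without signalling. The annotated transcripts Flt1-203 and Flt1-202 (GENCODE M21, build GRCm38) share 1972 coding bases from the start codon and then part, Flt1-203 coding for 688 residues and Flt1-202 for 1333. The 2 coding sequences around that point are shown because their difference defines the share measured next. The last 45 shared bases are in lower case, and capitals mark the 92 bases that follow in each, which in Flt1-203 are the rest of its coding sequence.
Flt1-203: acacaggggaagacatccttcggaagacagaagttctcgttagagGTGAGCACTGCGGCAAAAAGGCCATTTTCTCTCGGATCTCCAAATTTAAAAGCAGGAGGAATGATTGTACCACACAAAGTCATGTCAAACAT
Flt1-202: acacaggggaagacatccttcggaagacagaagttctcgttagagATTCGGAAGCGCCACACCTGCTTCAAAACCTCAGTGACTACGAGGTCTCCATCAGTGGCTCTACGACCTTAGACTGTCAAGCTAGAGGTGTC
The short form took 21.1%, 20.7%, 22.2% and 21.9% of the Flt1 reads in chow control and 20.4%, 21.8%, 22.4%, 23.4% and 22.7% in high-fat renin. Chow renin gave 18.7%, 22.1% and 25% as the lowest, median and highest and high-fat control 18.8%, 21.6% and 22.8%. The groups overlapped throughout, and differences between them ran from -0.38 to 1.04 percentage points. In 5 two-sided exact permutation tests over libraries, the lowest p was 0.255 (high-fat renin against high-fat control, where 1 arrangement of libraries gives 0.00216), and the p-values after Benjamini-Hochberg adjustment were 0.869 to 0.922. Between high-fat renin and chow renin, where Flt1 itself was called, the mean shares were 22.1% and 22.0%. The share rests on 550.5 to 1148 estimated short-form reads a library and on salmon's split of reads between transcripts.

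A list of 24 further pan-endothelial genes that are not among the 32 was, like the lists after it, chosen with earlier results of these data known. Of these 24, 9 were called higher in high-fat renin than in chow renin and none lower, beside 9.8% of all genes called higher, with a median log2 fold change of 0.27 beside 0.02 over all genes. Esm1, a secreted product of sprouting tip cells, gave the largest value, at 1.79 CPM or less in every chow renin heart and 4.38, 5.26, 2.83, 3.31 and 4.33 CPM in high-fat renin (log2 fold change 1.41, SE 0.26, adjusted p by edgeR 0.000272). Cd93 (0.59), Cd34 (0.47) and Adgrl4 (0.39) were also called. Against chow control, Esm1 (1.30, adjusted p by edgeR 0.0101) and Adgrl4 (0.42, adjusted p by edgeR 0.0435) were called higher in high-fat renin, and Esm1 and Cd93 were called higher against high-fat control. These were 2 of 24 each, beside 8.31% and 11.1% of all genes called in either direction. In chow renin against chow control Stab1 alone was called, lower (1 of 24, beside 13.5% of all genes).

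Among 15 ligands and partners of the vascular growth factor, angiopoietin and apelin receptors, of which 14 were tested, 5 were called higher in high-fat renin than in chow renin (Vegfd, Nrp1, Flt4, Angpt2 and Calcrl) and none lower, beside the same 9.8% of all genes called higher. Angpt2, the angiopoietin that antagonises Tek in many settings, was called lower in chow renin than in chow control (-0.74, adjusted p by edgeR 0.0164) and higher in high-fat renin than in chow renin (0.75, adjusted p by edgeR 0.00644). Calcrl, the adrenomedullin receptor, was called higher in high-fat renin against both chow groups (0.40 and 0.44). Vegfb was called lower with renin on either diet, and Pgf, placental growth factor, was called lower in high-fat renin than in high-fat control (-0.68, adjusted p by edgeR 0.0323). Of the 14 tested, 3 were called in chow renin against chow control, and for high-fat renin 1 was called against the chow control group and 2 against high-fat control, beside 13.5%, 8.31% and 11.1% of all genes. Of 14 other Notch and ephrin genes, Jag2, Hey2 and Ephb4 were called lower in chow renin than in chow control (3 of 14, beside 13.5% of all genes called in either direction). Notch4 and Nrarp were called higher in high-fat renin than in chow renin (2 of 14, beside 9.8% of all genes called higher). Notch3, also a marker of mural cells, was called lower in high-fat renin than in high-fat control, where 11.1% of all genes were called.

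Of 11 endothelial activation genes tested, 4 were called higher in chow renin than in chow control (Ackr1, Ccl2, Cxcl1 and Il6), beside 13.5% of all genes called in either direction. In high-fat renin against chow renin, where 22.6% of all genes were called, 6 were called lower (Vcam1, Ackr1, Csf3, Ccl2, Cxcl1 and Il6) and Icam1 higher. Ccl2, a monocyte chemokine, measured 7.02, 4.67, 5.19 and 4.12 CPM in chow control and 18.4, 20.8 and 24 CPM as the lowest, median and highest of chow renin (log2 fold change 2.0, SE 0.12, adjusted p by edgeR 4.38e-11). Such genes are also made by other cell types, and the cell of origin was not tested. Of 10 genes of endothelial lipid handling, Lpl was called lower in high-fat renin against both chow groups (-0.39 and -0.29), and Aqp7 lower against high-fat control. This was 1 of 10 in each comparison, beside 8.31% of all genes called against chow control, 22.6% against chow renin and 11.1% against high-fat control. Of 11 shear-responsive genes and KLF targets, which include Thbd, Klf2 and Klf4, edgeR called Thbd in chow renin as given above (1 of 11, beside 13.5% of all genes), and Nostrin and Podxl higher in high-fat renin than in chow renin (0.62 and 0.34; 2 of 11, beside 9.8% of all genes called higher).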

How the data were processed

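The members and gene lists were chosen with earlier results of these data known. Estimated counts per transcript and TPM were deposited by the authors for each of 21 libraries; per the submitters' processing notes, Salmon 1.10.2, DESeq2 1.40.2 and the build GRCm38 (mm10) were used, and strand settings are not given in the sources used here. The authors also deposited a gene matrix of normalised signal values, with log2 fold changes and adjusted p-values of 1 comparison whose reference group is not stated. Effective transcript lengths, an other value in these deposited tables, served 1 alternative only.

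Estimated counts (raw counts had been assumed) were summed to genes with GENCODE mouse release 21, which held 97.95% of the 119215 transcripts, and rounded. Unmatched transcripts, with 0.854 to 0.925% of the reads, were left out. In R 4.3.3, edgeR 4.0.16 (TMM, filterByExpr, robust quasi-likelihood fit of 21 libraries with a term per group) tested 15216 genes in 6 comparisons, and a gene was called at a Benjamini-Hochberg adjusted p under 0.05. CPM are TMM-scaled. DESeq2 1.42.0 and limma 3.58.1 served alternatives, which also changed normalisation, filter, libraries, depth, length and covariates. The fit was tested on simulated data. Within groups, counts of all 46 pairs of libraries differed by more than sampling noise (chi-square per degree of freedom 3.45 to 54.7). The labels number the libraries of a group as replicates, so p-values measure the spread between these libraries.

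Each library's value was to be given for members called in any comparison and for the 4 with the highest TPM, and up to 4 genes by largest called change from each further list. Klf2, Vwf, Plvap and other called genes outside that rule were named after their values were seen. Promoters came from RefSeq (GRCm38.p6) and transcripts from GENCODE. The limma fit of the authors' matrix (log2 of signal plus 1, mean signal at least 0.5) and the comparison of group means of TPM (log2 ratio, no test) were chosen after seeing the data.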

Additional observations from a re-analysis of the deposited data

Results flagged for a closer look

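Values are set out here where the highest or lowest library of a group stood further from its neighbour than Dixon's 95% critical value allows, in 136 groups of values (each of the 32 genes and their sum in each of the 4 groups, and the 4 sets of Flt1 shares). There were 15 such values, and chance gives about 1 in 20 groups. High-fat control replicate 6 held 7 of them, all high: Pecam1 (220.7 CPM, next 166.5), Emcn (38.5, next 25.7), Car4 (29.6, next 18.7), Notch1 (64.3, next 55.2), Efnb2 (36.0, next 28.6), Ly6c1 (156.8, next 97.1) and the summed level of the 32 genes (2621, next 2114). In chow control, replicate 3 was high for Vwf (118.7 CPM, next 54.5) and Plvap (17.8, next 7.67). In chow renin, replicate 2 was high for Rgcc (37.4 CPM, next 23.1) and Sox17 (17.4, next 14.3), replicate 5 was high for Robo4 (43.4, next 37.6), and replicate 3 was low for Dll4 (18.4, next 23.6). Dll4 was also low in high-fat control replicate 3 (19.4 CPM, next 29.1), and Car4 was high in high-fat renin replicate 3 (18.8, next 15.8). The renin effect on Car4 differed between the diets by -0.63 on the log2 scale (adjusted p by edgeR 0.0417).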

How the results depend on the processing

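Counts of called members are given here for each alternative that moved them by over 1.5 times. Against chow control, high-fat renin (0 called) gave 1 with RLE scaling, the replicate block or the central neuron and glia score as a term, and 2 with DESeq2, a mean of at least 1 CPM or thinning. These settings called 1226 to 1608 of all genes. Chow renin (1 called) gave 3 with DESeq2, 4 with only the compared groups or the replicate block, 2 with the immediate early score or the length offset, and 0 with the clock or the central neuron and glia score. The last of these called 35 of all genes, and the other settings 1585 to 2499. The chow renin count stayed at 1 without the 3 libraries named below, but there Thbd was lost (adjusted p 0.0783) and Erg was called (adjusted p 0.0472). High-fat control (0) gave 1 with DESeq2 (111 of all genes). High-fat renin against high-fat control (0) gave 1 with DESeq2 or thinning (2151 and 1586 of all genes). High-fat renin against chow renin (8) gave 4 with upper-quartile scaling, the clock score or without the 3 libraries whose file codes set them apart (chow control replicates 1 and 2 and high-fat renin replicate 1). It gave 5 without a filter, with a mean of at least 1 CPM, the immediate early score, the length offset or limma on the authors' matrix, 18 with the replicate block, and 0 with the central neuron and glia score, with smaller moves to 11 in a fit of only the compared groups and 7 after thinning. Of all genes, 3670 of 15216 were called with the replicate block and 41 with that score. The other settings called from 1931 of 13468 (limma) to 3676 of 14811 (only the compared groups). The interaction (1) gave 2 with the replicate block, Kdr and Mmrn2, while Car4 was lost there (-0.43, adjusted p 0.119), and 0 with the central neuron and glia score, the length offset or limma. In that order these settings called 1615, 23, 1189 and 803 of all genes. With 1 library left out, counts of members ran from 0 to 1, 0 to 3, 0 to 0, 0 to 1, 2 to 10 and 0 to 2 in the order of the comparisons above.

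The libraries share only a replicate number: same-numbered libraries correlated over 0.1 in at most 3 of 5 pairs of 2 groups (lowest r -0.15), and 7 of 21 libraries matched their own number best. The pair numbered 3 had the highest r in each of the 5 comparisons, from 0.22 to 0.421. They were treated as unpaired, and the replicate block moved the counts as stated.

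With the central neuron and glia score as a term, signs reversed for Mmrn2 in chow renin against chow control (0.072), for Kdr (-0.29), Tek (-0.16), Cldn5 (-0.072), Dll4 (-0.060), Efnb2 (-0.17), Aplnr (-0.24), Ptprb (-0.30) and Icam2 (-0.30) between the renin groups, and for Kdr (-0.55) and Mmrn2 (-0.082) in the interaction. With the clock score Klf4 reversed (0.0016, high-fat renin against chow control). Of 268 alternative values of the 10 called pairs of member and comparison, 177 stayed called, 87 kept direction only and 4 reversed; the causes were not tested. The difference in Flt1 short form share, in percentage points with 1 library left out, ran from 0.35 to 1.09, -0.066 to 1.17, -0.73 to 0.081, 0.58 to 1.47 and -0.51 to 0.73 in the order above. Depth was lowest in chow control, and the lowest value of a member in any library was 118 reads.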
